A study of Rattus norvegicus with 11 samples.

Results

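The striatum of rats whose hematoma had been aspirated was compared at day 3 with the striatum of normal rats, and the genes that remained higher or lower than normal are described here. All 3 rats labelled IS-HA and both rats labelled Normal entered the comparison, 5 of the 11 rats of the series, and 15742 of the 30560 genes listed had enough counts to be tested. The rats were adult male Sprague-Dawley animals, for which one label gives 300 to 350 g and another 250 to 300 g of body weight. An IS-HA rat had received 0.6 U of collagenase VII-S in 3 μL into the right striatum under isoflurane, which digests the vessel wall and causes a bleed (the severe model, IS), and a catheter was passed through the clot at 6 h to withdraw 150 μL, by the labels about 75% of the hematoma. The Normal rats received neither injection nor aspiration, so the effects of anesthesia, needle, enzyme, blood and catheter cannot be told apart here. RNA came from the injected striatum, or from the corresponding region of a Normal rat, with 1 poly(A) library per rat. The 3 IS rats, which had the same collagenase dose and no aspiration, are cited beside single results, and the rats given the lower dose (IC) only shared the estimate of the spread.

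The striatum is made up mainly of medium spiny neurons, the GABAergic projection cells that respond to dopamine through the D1 or the D2 receptor, with a small number of interneurons among astrocytes, oligodendrocytes and microglia. After a bleed, red cells lyse and release hemoglobin, heme and iron, microglia and incoming macrophages engulf the debris, and astrocytes around the lesion take on a reactive state. In bulk tissue such as this, fewer cells of a type and less RNA per cell cannot be told apart, and the same holds for more cells and more RNA per cell.

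The counts assigned to genes summed to between 6701301 and 18817645 per rat in the whole series, and 3 counts, taken as the floor of detection, stood at 0.151 to 0.473 CPM (counts scaled by effective library size). The tissue label was checked against medium spiny neuron markers, which summed to 6720.1 and 6301 TPM (a level corrected for transcript length) in the Normal rats and to 3026, 2203 and 1363 TPM in the IS-HA rats. Markers of cortical neurons differed between the Normal rats themselves, at 98.8 and 347 TPM, with 202, 100.2 and 272 TPM in IS-HA replicates 1, 2 and 3. Choroid plexus and ependyma markers were low in all 5 rats, at 5.25 and 5.90 TPM in Normal and 30.7, 14.6 and 15.4 TPM in IS-HA. IS-HA replicate 2 had the smallest library and stood apart from the others of its group. It was the highest IS-HA rat for 73.4% of the raised genes (43.3% of all genes tested) and the lowest for 85.0% of the lowered genes (45.6% of all). Its short transcripts also read higher and its long ones lower than in IS-HA replicates 1 and 3, by a median of 0.69 on the log2 scale in the shortest of 5 equal bins of genes and of -0.51 in the longest. Short transcripts read lower and long ones higher in Normal replicate 3 than in Normal replicate 1 (medians -0.18 and 0.18, same bins). Raised genes had a median length of 0.802 and lowered genes of 1.34 times that of all genes tested, and with an offset for length in each library 2218 genes were raised and 1146 lowered under the rule given next.

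A gene is called raised or lowered here if it had an adjusted p below 0.05 in the quasi-likelihood test of edgeR together with a log2 ratio of IS-HA to Normal of 1 or more, or of -1 or less. By this rule 2383 genes were raised, 15.1% of those tested, and 1213 were lowered, 7.71%. The median log2 fold change was 2.02 over the raised genes, -1.505 over the lowered genes and 0.056 over all. Raised genes reached further than lowered ones: 690 were raised by 3 or more on the log2 scale and 27 were lowered by as much. Of the raised genes 2373 had all 3 IS-HA rats above both Normal rats, an order found for 31.7% of all genes tested, and all 1213 lowered genes had all 3 below, an order found for 29.2%. Raised genes held 5.23% and 4.28% of the counts of the Normal rats and 15.7%, 27.3% and 16.6% of those of the IS-HA rats. Lowered genes held 18.7% and 19.7% in Normal, and 9.77%, 4.87% and 8.75% in IS-HA. Scaling by library size alone moved the median of all genes up by 0.13 and the share of calls that were raised from 66.3% to 77.3% (2756 raised and 809 lowered). Without Normal replicate 3, which leaves 1 Normal rat that is assumed to vary like the other groups, 1205 genes were raised and 324 lowered, and without Normal replicate 1 the counts were 1642 and 792.

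**Figure D1:**
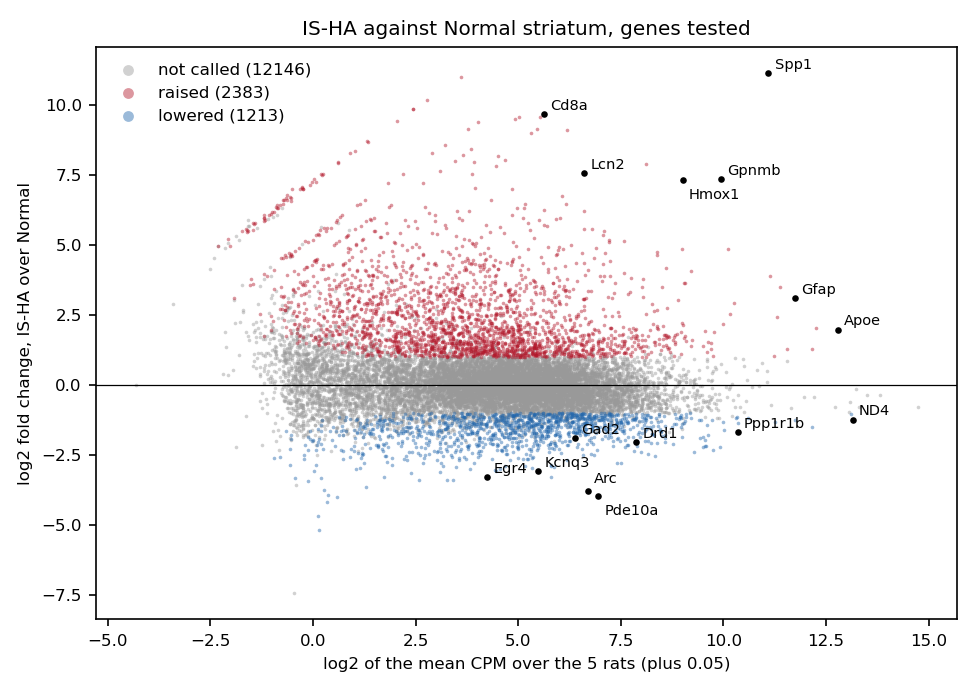
Each point is 1 of the 15742 genes tested, with the log2 of its mean CPM over the 5 rats on the horizontal axis and its log2 fold change in IS-HA over Normal on the vertical axis, red where raised (2383), blue where lowered (1213) and grey where not called. Named genes are marked in black, and the raised genes reach 11.14 while the named lowered genes go down to -3.98.

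The calls were read over 40 lists of cell type markers and pathways, some of which share members. Counts below are of tested members, and a member could be tested on the strength of its counts in the injured rats alone. Members under the filter's level (0.913 CPM) in both Normal rats numbered 8 of 10 neutrophil genes, 11 of 14 T and NK cell genes and 13 of 19 chemokines. They also numbered 8 of 21 cytokine and inflammasome genes, 6 of 14 matrix proteases and 9 of 24 reactive astrocyte genes. The same held for 5 of 14 class II genes, 5 of 22 lipid and debris phagocyte genes and 4 of 11 choroid plexus and ependyma genes. No median against Normal is given for all these lists. Every tested member was raised in the pan-phagocyte and cell cycle lists, and 27 of 28 medium spiny neuron markers were lowered. In the plot of list levels by rat, the 3 IS-HA rats stood on the same side of Normal for each of the raised immune lists and for each neuronal list apart from the cortical markers. For the immune lists this order is no test, since members low in both Normal rats could enter only through injured rats.

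**Figure D2:**
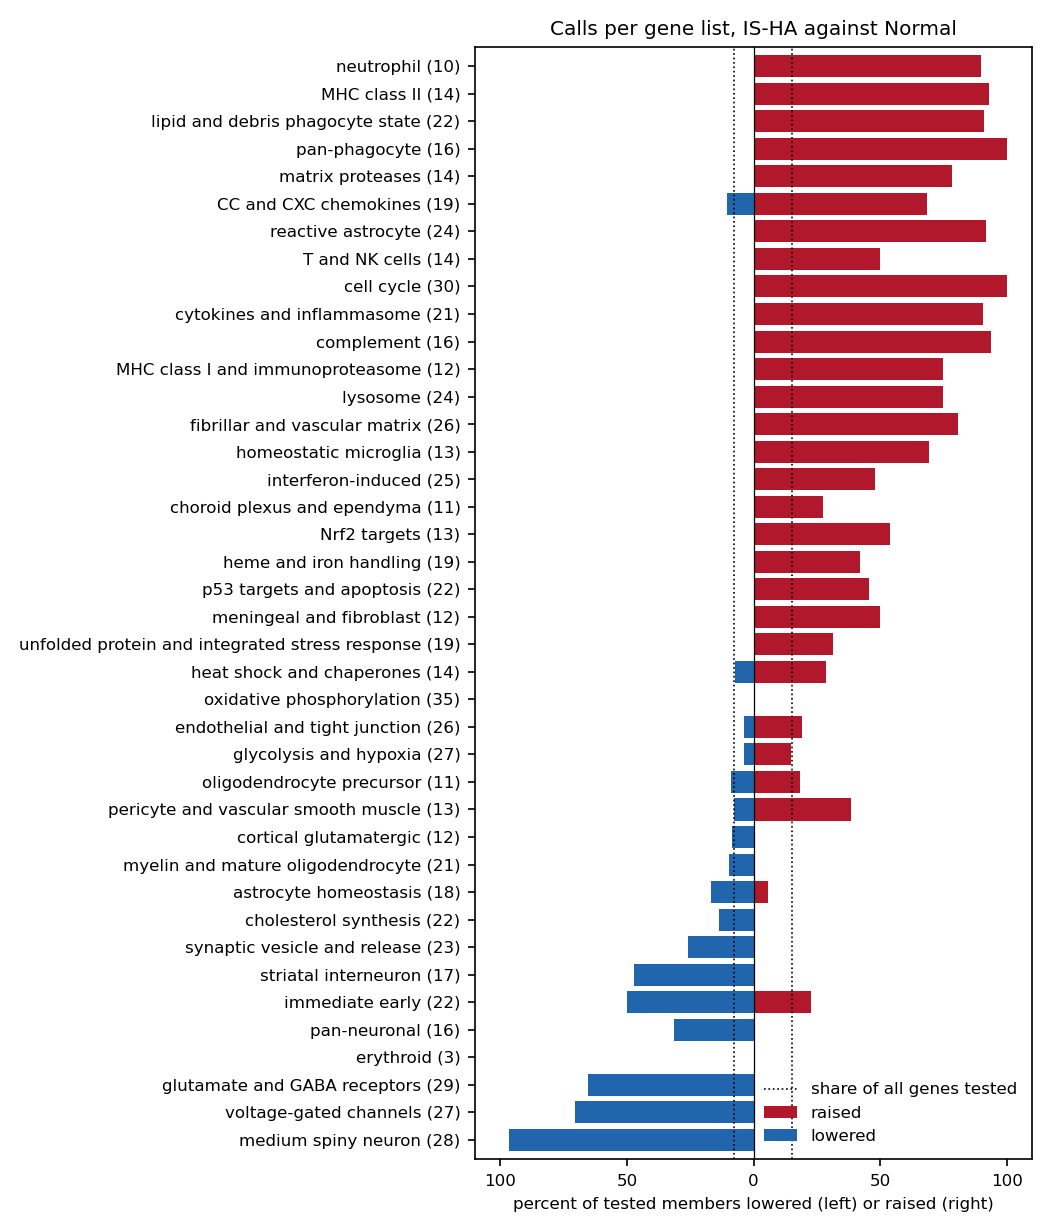
For each gene list (tested members in parentheses), bars give the percent of tested members raised (right, red) or lowered (left, blue) in IS-HA against Normal, with lists ordered by median log2 fold change; dotted lines mark the shares over all genes tested, 15.1% and 7.71%. Immune, phagocyte and cell cycle lists fill the upper rows, and neuronal lists the lower ones. Where members were low in both Normal rats, a list's raised share and rank rest partly on entry through injured rats alone.

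**Figure D3:**
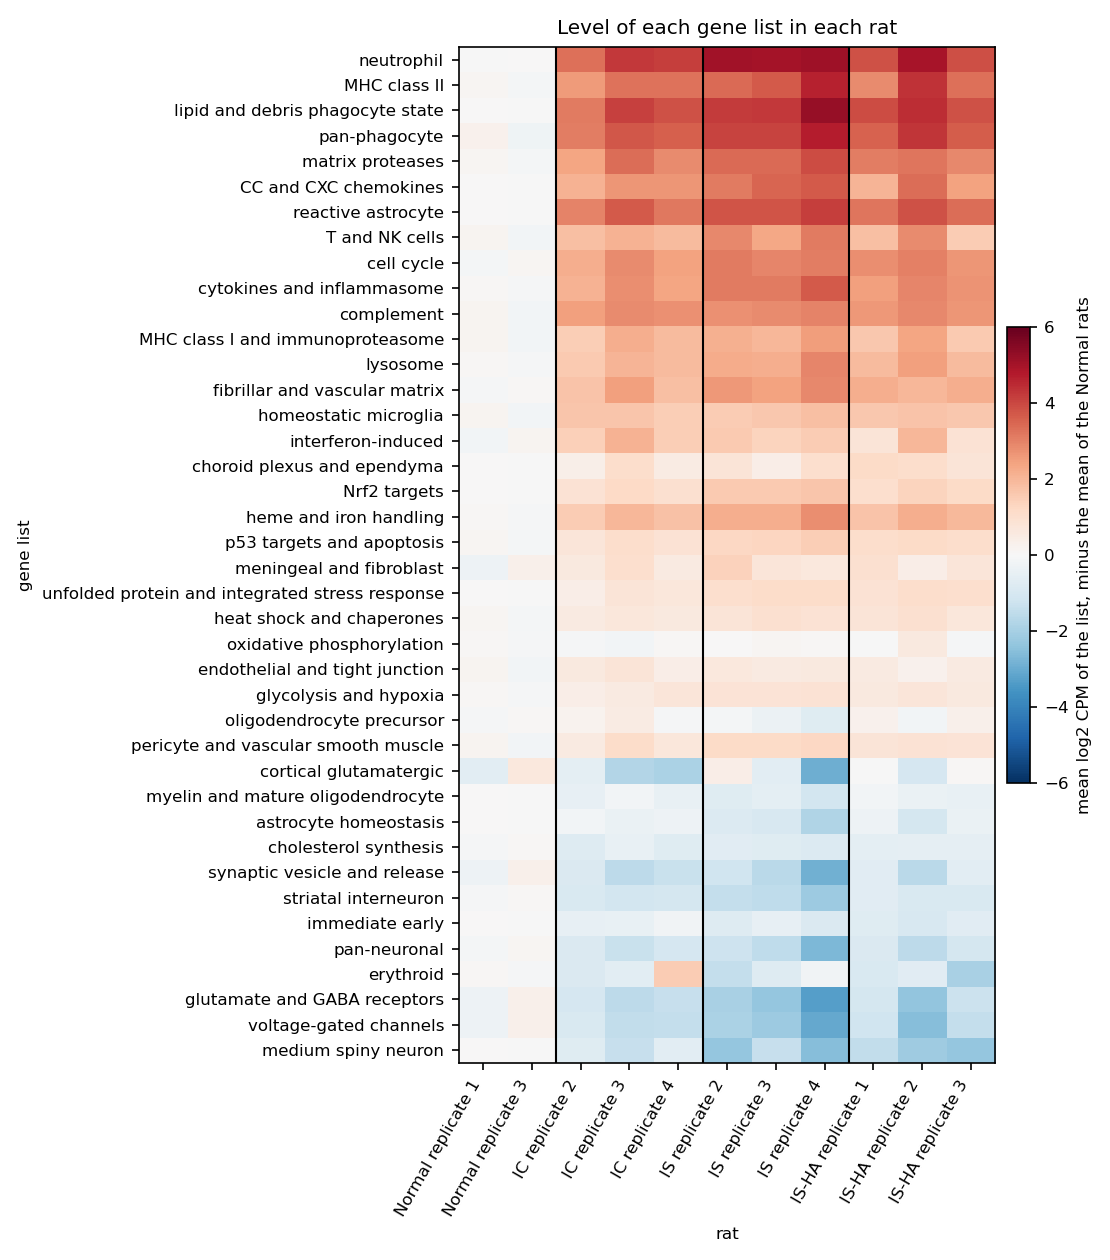
Colour gives the mean log2 CPM of each list's tested members in each of the 11 rats, minus the mean of the Normal rats (red higher, blue lower), with groups divided by black lines. Phagocyte lists are red in all 3 IS-HA rats and medium spiny neuron markers blue, and IS-HA replicate 2 has the deepest colours of its group in most immune lists.

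Phagocyte genes were raised without exception. All 16 tested members of the pan-phagocyte list were raised, with a median log2 fold change of 3.77 against 0.056 over all genes, and all 16 were raised again in each fit that left out 1 rat. The mean level of this list above Normal was 3.52, 4.27 and 3.63 in IS-HA replicates 1, 2 and 3, on the log2 scale. Cd68, a lysosomal glycoprotein of phagocytes, stood at 1.87 and 2.38 CPM in the Normal rats and at 126, 205 and 149 CPM in the IS-HA rats (log2 fold change 6.23 ± 0.60, edgeR adjusted p = 9.21e-05; here and below, ± after a fold change is its standard error, with 2 Normal and 3 IS-HA rats). Tyrobp, the adaptor that passes on signals from TREM2 and related receptors, stood at 8.34 and 4.71 CPM against 111, 347 and 124 CPM (log2 fold change 4.89 ± 0.64, edgeR adjusted p = 0.000432). Neither gene overlapped between the groups, and IS-HA replicate 2 was the highest rat for both. Cd14, a coreceptor for bacterial lipids and damage signals, had a log2 fold change of 6.08, edgeR adjusted p = 6.44e-05.

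Markers that set resting microglia apart moved less, and not together. Of 13 tested homeostatic microglia genes 9 were raised and 0 lowered, with a median of 1.58, and the count was 6 without Normal replicate 3. Tmem119, a membrane protein found in brain microglia and not in blood macrophages, stood at 38.8 and 24.1 CPM in Normal and 30.4, 29.0 and 37.7 CPM in IS-HA (log2 fold change 0.04 ± 0.28, edgeR adjusted p = 0.912). The groups overlapped, and the sign turned without Normal replicate 3 (-0.26), without IS-HA replicate 3 (-0.10) and with the length offset (-0.07). P2ry12, the purine receptor that steers microglial processes, stood at 47.2 and 30.7 CPM in Normal and 102, 65.8 and 89.5 CPM in IS-HA (log2 fold change 1.14 ± 0.29, edgeR adjusted p = 0.0139). It was called only narrowly: the log2 fold change was 0.86 without Normal replicate 3 (edgeR adjusted p = 0.155; 0.0580 with only the groups compared) and just under 1 without IS-HA replicate 1. Sall1, P2ry13 and Selplg, named after their values were seen, were the other 3 members without a call, at 0.72, 0.50 and 0.41. The raised members included Siglech, with 0 counts in Normal and 16 over the IS-HA rats, and Csf3r, which is also on the neutrophil list. Fcrl2, an Fc receptor-like gene for which the RefSeq table gives the synonym Fcrls, a microglial marker, rose from 10.95 and 6.86 CPM to 458, 347 and 137 CPM (log2 fold change 5.14 ± 0.93, edgeR adjusted p = 0.00260).

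Genes of the lipid- and debris-laden phagocyte state were raised in nearly all tested members. Of 22 tested members 20 were raised, and so were 16 of 17 that reached the filter's level in a Normal rat. Spp1, which encodes the secreted matrix protein osteopontin, went from 0.747 and 2.44 CPM in the Normal rats to 3139.7, 5187 and 2589 CPM in the IS-HA rats (log2 fold change 11.14 ± 1.03, edgeR adjusted p = 8.25e-05), the largest log2 fold change of all called genes. Gpnmb, a glycoprotein of lipid-laden macrophages, rose from 10.6 and 9.24 CPM to 1425, 2221 and 1233 CPM (log2 fold change 7.35 ± 0.58, edgeR adjusted p = 6.44e-05). Lgals3, the galectin that marks damaged lysosomes, rose from 2.24 and 1.69 CPM to 299, 782 and 309 CPM (log2 fold change 7.88 ± 0.76, edgeR adjusted p = 9.50e-05). For all 3 genes the lowest IS-HA rat was more than 100 times the highest Normal rat, and IS-HA replicate 2 was the highest. Clec7a, the receptor dectin-1, rose from 0.124 and 0.116 CPM to 65.1, 79.7 and 54.5 CPM (log2 fold change 8.996 ± 0.79, edgeR adjusted p = 7.02e-05). Apoe, the main lipid carrier of the brain and already abundant there, stood at 3139 and 1979 CPM in Normal and 5140.5, 19677 and 5409 CPM in IS-HA (log2 fold change 1.98 ± 0.69, edgeR adjusted p = 0.0493). Its call was narrow. The log2 fold change was 1.04 without IS-HA replicate 2 (edgeR adjusted p = 0.150), 1.68 without Normal replicate 3 (adjusted p = 0.270) and 2.34 without Normal replicate 1 (adjusted p = 0.117), and the call also ended with DESeq2 size factors, limma, the length offset and only the groups compared in the fit (adjusted p = 0.0512 to 0.106). Lpl and Cd36, named after their values were seen, were the members without a call, at 0.02 and 5.64. Cd36, a scavenger receptor for lipids and red cell debris, had 1 count in the Normal rats and 79 in the IS-HA rats, a ratio of 80.3, with a 95% counting interval of 14.0 to 3213.

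Lysosomal genes rose with them. Of 24 tested members 18 were raised and 0 lowered (median 1.85), a list that includes Cd68 and several cathepsins already counted above. Ctsz, a cathepsin with carboxypeptidase activity, rose from 24.5 and 15.9 CPM to 299, 989.9 and 342 CPM (log2 fold change 4.75 ± 0.64, edgeR adjusted p = 0.000483). Ctsc, which activates the serine proteases of granules, rose from 7.22 and 4.88 CPM to 106, 125 and 110.4 CPM (log2 fold change 4.23 ± 0.45, edgeR adjusted p = 0.000143).

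Promoters of these genes were read for short elements in the RefSeq table of rat promoters (build GRCr8), which covers 250 bases before to 50 bases after each gene's start and matched 11949 of the 15742 genes tested. The AP-1 element TGANTCA, the site of Fos and Jun dimers, was present on either strand in 7.99% of 1827 raised, 3.82% of 889 lowered and 5.16% of all promoters. In the lipid and debris phagocyte list 5 of 16 raised genes with a promoter entry held it. In the pan-phagocyte, homeostatic microglia and lysosome lists the counts were 1 of 10, 0 of 6 and 1 of 13. Among genes named here, Gpnmb (chr4:79341031-79341057, plus strand), Itgax (chr1:192149983-192150009, plus strand) and Mmp12 (chr8:12866555-12866581, plus strand) each had 1 match upstream of the start, and these stretches are shown because the 3 genes, all among the strongly raised phagocyte genes, hold the same letters in the element, which stands in capitals (5′ to 3′ on the gene's strand).
Gpnmb: caggagcaagTGAGTCAtgagcacgag
Itgax: cccccacctcTGAGTCAtgctgacaac
Mmp12: acatcaacagTGAGTCAtattgaggat
Itgax encodes the integrin CD11c and rose from 0.373 and 0.232 CPM to 16.2, 15.3 and 26.7 CPM (log2 fold change 5.97 ± 0.65, edgeR adjusted p = 0.000155). A match describes letters in a window and was not tested as a binding site. The antioxidant element core TGACNNNGC, which can overlap an AP-1 element, was present in 15.5% of raised, 15.3% of lowered and 14.5% of all promoters.

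**Figure D4:**
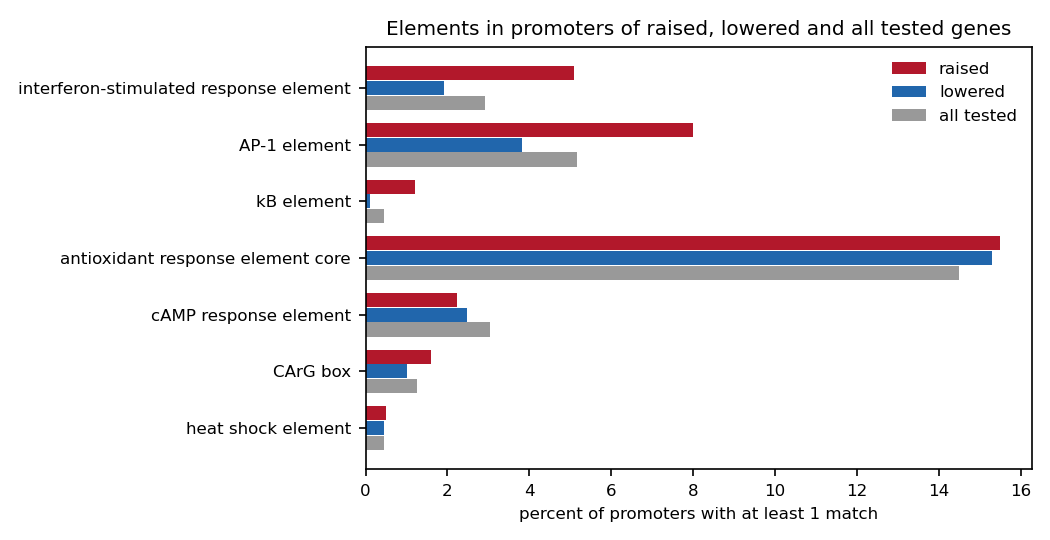
Bars give the percent of promoters with at least 1 match to each of 7 elements on either strand, for raised (1827), lowered (889) and all tested (11949) genes with a promoter entry. Besides the elements spelled out in the text, the cAMP element is TGACGTCA and the heat shock element GAANNTTCNNGAA. The CArG box is given by name only. The interferon-stimulated response element is found in 5.09%, 1.91% and 2.92%, and the kB element in 1.2%, 0.112% and 0.444%.

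Genes that handle heme and iron were raised in part. Of 19 tested members 8 were raised and 0 lowered (median 1.10), and 4 without Normal replicate 3. Hmox1, heme oxygenase 1, which opens the heme ring and frees its iron, rose from 6.91 and 3.89 CPM to 582, 1049.7 and 932 CPM (log2 fold change 7.31 ± 0.55, edgeR adjusted p = 6.44e-05). All 3 IS-HA rats were also below all 3 IS rats, which had 1562, 1884 and 3046 CPM, and the difference from IS was not called (log2 fold change -1.34, edgeR adjusted p = 0.499). Lcn2, lipocalin 2, which binds bacterial iron carriers and is released by neutrophils and astrocytes, rose from 0.747 and 0.930 CPM to 171, 156 and 158 CPM (log2 fold change 7.57 ± 0.49, edgeR adjusted p = 5.55e-05). Cd163, the macrophage receptor for hemoglobin bound to haptoglobin, rose from 1.37 and 1.57 CPM to 10.1, 10.6 and 27.1 CPM (log2 fold change 3.43 ± 0.72, edgeR adjusted p = 0.00572), with an adjusted p of 0.0584 without Normal replicate 3. Slc11a1, which pumps iron out of the phagosome, had a log2 fold change of 4.91, edgeR adjusted p = 8.21e-05. Fth1, the heavy chain of the iron store ferritin, stood at 2203 and 1213 CPM in Normal and 4497, 11607 and 4713 CPM in IS-HA (log2 fold change 2.02 ± 0.51, edgeR adjusted p = 0.0133; 1.65 and adjusted p = 0.137 without Normal replicate 3; adjusted p = 0.0584 with only the groups compared).

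Red cell transcripts were not higher in the aspirated striatum. Hbb, beta globin, stood at 78.5 and 63.2 CPM in the Normal rats and at 30.2, 44.5 and 17.8 CPM in the IS-HA rats, below Normal in all 3, and did not pass the test (log2 fold change -1.21 ± 0.58, edgeR adjusted p = 0.126). Of 11 erythroid genes listed 7 were matched and 3 had enough counts to be tested. Of these 0 were called by edgeR or DESeq2, and 0 had an unadjusted p under 0.05. Hba-a3 and Alas2, named after their values were seen, had low means of 2.79 and 1.32 CPM in Normal and 1.69 and 0.433 CPM in IS-HA. The reading therefore rests mainly on Hbb.

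Antioxidant genes regulated by the factor Nrf2 were raised in part. Of 13 tested members 7 were raised and 0 lowered (median 1.13), and 4 were raised without Normal replicate 3. The metallothioneins, which bind zinc and copper, led the list. Mt2A rose from 26.8 and 16.7 CPM to 304, 960.0 and 354 CPM (log2 fold change 4.63 ± 0.55, edgeR adjusted p = 0.000244), and Mt1 from 14.3 and 9.07 CPM to 68.8, 226 and 81.6 CPM (log2 fold change 3.42 ± 0.51, edgeR adjusted p = 0.000843). Txn1, thioredoxin, had a log2 fold change of 2.20, edgeR adjusted p = 0.00561, with an adjusted p of 0.0703 without Normal replicate 3. Glutathione synthesis genes, named after their values were seen, did not pass: the subunits of its first enzyme, Gclc and Gclm, were at -0.26 and 0.33, and the cystine importer Slc7a11 at -0.58. Gsr, Txnrd1 and Srxn1, also named after their values were seen, had no call either, at 0.51, 0.37 and -0.998. All 3 IS-HA rats were above both Normal rats for Gsr and Txnrd1 and below them for Srxn1.

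Most neutrophil genes were hardly detected in the Normal rats. Of 18 listed genes 10 could be tested and 9 of these were raised, but 8 of the 10 were under the filter's level in both Normal rats. The 8 genes not tested had at most 1 count in a Normal rat and 7 in an IS-HA rat, and 3 of them had 0 in all 5 rats. Csf3r, the receptor for granulocyte colony-stimulating factor and named after its values were seen, was the raised member with the highest Normal level, and went from 4.36 and 3.72 CPM to 33.9, 51.8 and 40.0 CPM (log2 fold change 3.37 ± 0.38, edgeR adjusted p = 0.000191). It is also on the homeostatic microglia list, and which cells carried it was not tested. S100a8, a subunit of the calcium-binding protein calprotectin, had 0.124 and 0.174 CPM in the Normal rats, at or below the floor of 3 counts, and 9.97, 104 and 13.6 CPM in the IS-HA rats (log2 fold change 8.04 ± 1.45, edgeR adjusted p = 0.00255). S100a9, its partner, had 0.436 and 0.291 CPM and 18.0, 101 and 24.5 CPM (log2 fold change 6.99 ± 1.01, edgeR adjusted p = 0.000744). Both genes were 4 or more times higher in IS-HA replicate 2 than in the other IS-HA rats. Mmp8, the collagenase of neutrophil granules, had 1 count over both Normal rats and 195 over the IS-HA rats, a ratio of 198, with a 95% counting interval of 35.2 to 7872. The list shares Lcn2, Mmp8, Mmp9 and Csf3r with other lists. A separate set of 5 neutrophil markers, S100a8 and S100a9 among them, summed to 2.17 and 2.16 TPM in Normal and 142, 827 and 184 TPM in IS-HA. Mpo, the peroxidase made by neutrophil precursors and named after its values were seen, was at 0 TPM in both Normal rats and at 0.0628, 0 and 0.277 TPM in the IS-HA rats.

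Lymphocyte genes were raised in part. Of 19 T and NK cell genes found in the files 14 could be tested, and 7 were raised and 0 lowered. All 7 raised genes were under the filter's level in both Normal rats, and 0 of 3 that reached it were raised. The 5 genes not tested had at most 2 counts in a Normal rat and 8 in an IS-HA rat. The count was 4 without Normal replicate 1 and 3 without Normal replicate 3, 3 with limma and 2 with only the groups compared in the fit. Cd8a had 3 counts over both Normal rats and 56.8, 143 and 45.4 CPM in the IS-HA rats, a ratio of 774, with a 95% counting interval of 265 to 3757 (edgeR adjusted p = 0.000292). Cd8b had 0 counts in both Normal rats and 8.05, 18.8 and 7.26 CPM in the IS-HA rats, at least 109-fold higher against a floor of 3 counts over the Normal group (edgeR adjusted p = 0.00106). The other raised members, named after their values were seen, stayed at low levels. Klrb1b, a receptor of NK cells, had 0 counts in Normal and 15 over the IS-HA rats, at least 5.08-fold higher. Ncr1, another NK cell receptor, had 1 count in Normal and 17 in IS-HA, a ratio of 17.3, with a 95% counting interval of 2.71 to 722, and its adjusted p of 0.0479 became 0.112 without IS-HA replicate 2, 0.0968 without Normal replicate 1 and 0.252 without Normal replicate 3. Cd2, an adhesion receptor of T and NK cells, rose from 0.249 and 0.116 CPM to 1.21, 5.21 and 0.745 CPM (log2 fold change 3.55 ± 0.96, edgeR adjusted p = 0.0189; adjusted p = 0.0702 and 0.148 without Normal replicate 1 or 3). The T cell surface proteins Cd5 and Icos had log2 fold changes of 3.34, edgeR adjusted p = 0.0218, and of 2.88, edgeR adjusted p = 0.0124, and both calls were lost without Normal replicate 3 (adjusted p = 0.153 and 0.115), that of Icos also without Normal replicate 1 (adjusted p = 0.0568). Of the CD3 chains of the T cell receptor complex none was called. Cd3d and Cd3g had log2 fold changes of 3.90, edgeR adjusted p = 0.125, and of 1.88, edgeR adjusted p = 0.242. Cd3e stood at 0.871 and 0.639 CPM in Normal and 0.575, 2.68 and 0.279 CPM in IS-HA, with overlapping groups (log2 fold change 0.47 ± 0.75, edgeR adjusted p = 0.646). Markers of T and NK cells summed to 1.24 and 0.672 TPM in Normal and 3.92, 15.1 and 2.03 TPM in IS-HA, and their part in the CD8 values was not tested. In the rat, CD8 is carried by macrophages and NK cells as well as by T cells.

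Most chemokines that could be tested were raised. Of 19 tested members 13 were raised and 2 lowered, and among the members that reached the filter's level in a Normal rat 2 of 6 were raised. The count of raised members was 8 without IS-HA replicate 2, 7 without Normal replicate 1 and 6 without Normal replicate 3. Ccl2, the main attractant of monocytes, had 0.124 and 0.174 CPM in Normal, at or below the floor, and 22.9, 36.3 and 49.6 CPM in IS-HA (log2 fold change 7.82 ± 0.82, edgeR adjusted p = 0.000133). Ccl7, which shares its receptor, had 0.124 and 0.116 CPM and 17.2, 55.1 and 41.2 CPM (log2 fold change 8.17 ± 1.10, edgeR adjusted p = 0.000504). Cxcl10, an interferon-induced attractant of T cells, had 0.498 and 0.930 CPM and 1.85, 23.7 and 2.33 CPM (log2 fold change 3.62 ± 1.05, edgeR adjusted p = 0.0247), so that IS-HA replicate 2 held most of the signal. Its log2 fold change was 1.52 without IS-HA replicate 2, and its adjusted p was 0.132 without Normal replicate 1 and 0.119 without Normal replicate 3 and 0.116 with only the groups compared. Cxcl3, an attractant of neutrophils, had 0 counts in Normal and 0.383, 4.10 and 0.559 CPM in IS-HA, at least 12.9-fold higher, a call lost without IS-HA replicate 2 (edgeR adjusted p = 0.120) and without either Normal rat (adjusted p = 0.134 and 0.181) and with limma (adjusted p = 0.163). Cx3cl1, the neuronal ligand of the microglial receptor Cx3cr1, fell from 712 and 762 CPM to 355, 208 and 274 CPM (log2 fold change -1.40 ± 0.35, edgeR adjusted p = 0.0124; adjusted p = 0.0808 without Normal replicate 3). Cxcl12, the other lowered member and named after its values were seen, attracts lymphocytes and progenitor cells and had a log2 fold change of -1.02, edgeR adjusted p = 0.0178.

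Cytokine and inflammasome genes were raised at low absolute levels. Of 21 tested members 19 were raised and 0 lowered, and 12 of 13 that reached the filter's level in a Normal rat were raised. Il1b, interleukin 1 beta, had 0.311 and 0.232 CPM in Normal and 2.75, 10.4 and 3.17 CPM in IS-HA (log2 fold change 4.22 ± 0.83, edgeR adjusted p = 0.00405; adjusted p = 0.0534 without Normal replicate 3). Il1rn, its natural antagonist, had 0.0622 and 0.291 CPM and 9.14, 19.2 and 10.5 CPM (log2 fold change 6.08 ± 0.80, edgeR adjusted p = 0.000429). Tnf, tumor necrosis factor, had 0.373 and 0.349 CPM and 1.02, 2.84 and 2.98 CPM (log2 fold change 2.59 ± 0.58, edgeR adjusted p = 0.00806), with adjusted p of 0.0521 and 0.0763 without Normal replicate 1 or 3. Il6 had 0 counts in Normal and 21 over the IS-HA rats, at least 7.12-fold higher, a call that ended with limma on TPM (log2 fold change 0.66). Osm, oncostatin M, which signals to astrocytes and endothelium, had 0.249 and 0.116 CPM and 3.20, 2.998 and 6.43 CPM (log2 fold change 4.48 ± 0.80, edgeR adjusted p = 0.00248).

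Complement genes were raised in all tested members but 1. Of 16 tested members 15 were raised (median 2.48), the count was 15 in each fit that left out 1 rat, and the member without a call was Cd59b, an inhibitor of the lytic pore, named after its values were seen (0.38). C1qb, a chain of the C1q recognition molecule that microglia make, rose from 45.2 and 23.7 CPM to 421, 978 and 459 CPM (log2 fold change 4.17 ± 0.47, edgeR adjusted p = 0.000198). C1qc, another of its chains, rose from 30.7 and 17.6 CPM to 257, 487 and 289.7 CPM (log2 fold change 3.83 ± 0.38, edgeR adjusted p = 0.000106). C3, the central component, rose less, from 15.2 and 13.1 CPM to 47.0, 54.3 and 33.4 CPM (log2 fold change 1.66 ± 0.30, edgeR adjusted p = 0.00260).

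Antigen presentation genes of both classes were raised. Of 14 tested class II genes 13 were raised, with 9 of 9 that reached the filter's level in a Normal rat among them, and of 12 class I and immunoproteasome genes 9 were raised (median 1.99), or 6 without Normal replicate 3. Cd74, the invariant chain that guards the class II groove, rose from 11.6 and 5.46 CPM to 101, 421 and 154 CPM (log2 fold change 4.72 ± 0.84, edgeR adjusted p = 0.00251). RT1-Da, a class II alpha chain, rose from 1.12 and 0.755 CPM to 29.2, 51.1 and 42.6 CPM (log2 fold change 5.43 ± 0.61, edgeR adjusted p = 0.000199), though reads of near-identical RT1 genes could have been divided among them. Psmb8 and Psmb9, the immunoproteasome subunits LMP7 and LMP2, rose from 6.22 and 4.24 CPM to 42.2, 119 and 41.5 CPM (log2 fold change 3.68 ± 0.52, edgeR adjusted p = 0.00067) and from 1.80 and 1.34 CPM to 11.8, 30.0 and 9.59 CPM (log2 fold change 3.42 ± 0.54, edgeR adjusted p = 0.00129). Psme1, a cap of the proteasome core, rose from 25.95 and 20.05 CPM to 88.5, 219 and 88.4 CPM (log2 fold change 2.52 ± 0.41, edgeR adjusted p = 0.00142). Tap1, the peptide pump of the endoplasmic reticulum, rose from 3.55 and 3.95 CPM to 16.2, 26.4 and 13.6 CPM (log2 fold change 2.31 ± 0.37, edgeR adjusted p = 0.00131). B2m, the light chain of class I, rose from 222 and 168 CPM to 597, 747 and 456 CPM (log2 fold change 1.62 ± 0.33, edgeR adjusted p = 0.00518; adjusted p = 0.0728 without Normal replicate 3). For each of these 7 genes IS-HA replicate 2 was the highest rat.

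Interferon-induced genes were raised in part, and their count rested on single rats. Of 25 tested members 12 were raised and 0 lowered (median 1.35). The count was 8 without IS-HA replicate 2, 5 without Normal replicate 1 and 6 without Normal replicate 3. The list's mean level above Normal was 0.78, 2.01 and 0.87 in IS-HA replicates 1, 2 and 3 on the log2 scale, so that replicate 2 stood more than 1 unit above the others. Irf7, the regulator of type I interferon genes, stood at 4.61 and 6.04 CPM in Normal and 6.52, 31.1 and 7.45 CPM in IS-HA and did not pass (log2 fold change 1.46 ± 0.66, edgeR adjusted p = 0.109), though it passed without IS-HA replicate 1 (1.83, adjusted p = 0.0465). Gbp2, a guanylate-binding protein, rose from 5.35 and 6.45 CPM to 27.1, 36.3 and 23.7 CPM (log2 fold change 2.29 ± 0.30, edgeR adjusted p = 0.000464), and Bst2, the surface protein tetherin, from 3.73 and 2.27 CPM to 14.8, 48.3 and 14.0 CPM (log2 fold change 3.08 ± 0.64, edgeR adjusted p = 0.00528; adjusted p = 0.0701 without Normal replicate 3). Oasl, an oligoadenylate synthetase-like protein, had 0.560 and 1.16 CPM in Normal and 2.24, 15.8 and 1.49 CPM in IS-HA (log2 fold change 2.82 ± 0.96, edgeR adjusted p = 0.0442), a call lost without IS-HA replicate 2 (1.12, adjusted p = 0.139), Normal replicate 1 (adjusted p = 0.193) or Normal replicate 3 (adjusted p = 0.145), and with limma, the length offset or only the groups compared (adjusted p = 0.0967, 0.0561 and 0.144).

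The element GAAANNGAAA, the core to which interferon regulatory factors and the ISGF3 complex bind, was present on either strand in 5.09% of raised, 1.91% of lowered and 2.92% of all 11949 promoters. It was found in 9 of the 11 raised interferon-induced genes with a promoter entry and in 6 of the 8 raised class I and immunoproteasome genes. These genes are known targets of interferon and were listed for that, so the count describes the list. The stretches of 4 named genes are shown with the element in capitals, read 5′ to 3′ on the strand of each gene: B2m (chr3:129549170-129549199, plus strand), Tap1 (chr20:4668645-4668674, minus strand), Bst2 (chr16:18255073-18255102, minus strand) and Gbp2 (chr2:234005686-234005715, plus strand). In Tap1 and Gbp2 the match lies on the opposite strand and reads as its reverse complement.
B2m: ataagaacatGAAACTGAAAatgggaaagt
Tap1: cggtggctgcTTTCGGTTTCttcttcctct
Bst2: ccaggaaaatGAAACTGAAAggtggcagca
Gbp2: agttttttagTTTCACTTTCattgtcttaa
The kB element GGGANTTTCC was present in 1.2% of raised, 0.112% of lowered and 0.444% of all promoters, and in 2 of the 8 raised class I and immunoproteasome genes, B2m and Tap1.

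Reactive astrocyte genes were raised in most tested members. Of 24 tested reactive genes 22 were raised and 0 lowered, and 13 of 15 that reached the filter's level in a Normal rat were raised. The 2 members without a call had all 3 IS-HA rats below both Normal rats, and the lowest log2 fold change was -1.09. Gfap, the intermediate filament of astrocytes, rose from 603 and 621 CPM to 5480.4, 5952 and 4465 CPM (log2 fold change 3.11 ± 0.31, edgeR adjusted p = 0.000108), with neither Normal rats nor IS-HA rats differing much among themselves. Timp1, an inhibitor of metalloproteinases, rose from 1.12 and 1.51 CPM to 77.6, 197 and 81.6 CPM (log2 fold change 6.48 ± 0.58, edgeR adjusted p = 7.96e-05), and Hspb1, a small heat shock protein, from 5.66 and 1.98 CPM to 107, 314 and 125 CPM (log2 fold change 5.57 ± 0.70, edgeR adjusted p = 0.000336). Serpina3n, a secreted protease inhibitor of reactive astrocytes, had 2 counts over both Normal rats and 8.31, 128 and 15.9 CPM in the IS-HA rats, a ratio of 564, with a 95% counting interval of 156 to 4666. The Serpina3n signal was largest in IS-HA replicate 2, and its edgeR adjusted p was 0.0149 with all rats, 0.0797 without Normal replicate 1 and 0.123 without Normal replicate 3.

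Among 18 tested genes of astrocyte homeostasis 1 was raised and 3 were lowered (median -0.49), and 0 were lowered without Normal replicate 3 and 1 with library size alone. Slc1a2, the main glutamate transporter of astrocytes, fell from 184 and 414 CPM to 96.6, 30.0 and 71.0 CPM (log2 fold change -2.18 ± 0.53, edgeR adjusted p = 0.0114). The Normal rats themselves stood apart for Slc1a2, and without Normal replicate 3 its log2 fold change was -1.48 (edgeR adjusted p = 0.145). Kcnj10, the potassium channel Kir4.1, fell from 407 and 438 CPM to 268, 105 and 224 CPM (log2 fold change -1.09 ± 0.31, edgeR adjusted p = 0.0246; -0.78 without IS-HA replicate 2, -1.14 and adjusted p = 0.0783 without Normal replicate 1, -1.03 and adjusted p = 0.134 without Normal replicate 3). The Kcnj10 call also ended with library size alone (-0.94), limma (adjusted p = 0.0599), the length offset (-0.81) and only the groups compared (adjusted p = 0.109). Aqp4, the water channel of astrocyte endfeet, stood at 721 and 822 CPM in Normal and 1349, 401 and 821 CPM in IS-HA, where replicate 1 was the highest and replicate 2 the lowest of the 5 rats (log2 fold change 0.15 ± 0.46, edgeR adjusted p = 0.815; -0.34 without IS-HA replicate 1). Glul, glutamine synthetase, rose from 1575 and 1353 CPM to 2957, 2763 and 3374 CPM (log2 fold change 1.05 ± 0.20, edgeR adjusted p = 0.00336), a change that came to 0.94 without Normal replicate 3 and 0.95 without IS-HA replicate 3.

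Matrix and protease genes were raised together. Of 26 tested matrix genes 21 were raised (median 1.65), and of 14 proteases 11 were, with 0 lowered in either, and 6 of 8 that reached the filter's level in a Normal rat were raised. Postn, periostin, rose from 0.747 and 0.697 CPM to 36.4, 33.0 and 28.4 CPM (log2 fold change 5.48 ± 0.45, edgeR adjusted p = 6.44e-05), and Thbs1, thrombospondin 1, from 2.12 and 4.59 CPM to 77.3, 77.6 and 155 CPM (log2 fold change 4.94 ± 0.91, edgeR adjusted p = 0.00287). Col1a1, a chain of type I collagen, rose from 23.3 and 34.1 CPM to 111, 53.8 and 115 CPM (log2 fold change 1.70 ± 0.39, edgeR adjusted p = 0.00892; adjusted p = 0.0788 without Normal replicate 1). IS-HA replicate 2 was the lowest IS-HA rat for Col1a1, unlike most raised genes. Plau, the urokinase plasminogen activator, rose from 0.747 and 0.581 CPM to 66.3, 51.6 and 60.6 CPM (log2 fold change 6.47 ± 0.60, edgeR adjusted p = 8.25e-05), and Mmp12, the macrophage elastase, had 1 count over both Normal rats and 16.2, 14.0 and 7.08 CPM in IS-HA, a ratio of 425, with a 95% counting interval of 75.9 to 16828. Mmp3, stromelysin, had 2 and 14 counts over the Normal and IS-HA rats and did not pass (edgeR adjusted p = 0.104).

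Vessel genes were mostly not called. Of 26 tested endothelial genes 5 were raised and 1 lowered (median 0.22), and 2 were raised without Normal replicate 3. The raised share lay near the 15.1% over all genes tested. The adhesion molecule Icam1 rose from 4.23 and 3.31 CPM to 25.4, 31.1 and 26.1 CPM (log2 fold change 2.86 ± 0.28, edgeR adjusted p = 0.000102), Selp, P-selectin, from 0 and 0.232 CPM to 3.83, 4.89 and 2.05 CPM (log2 fold change 4.78 ± 0.77, edgeR adjusted p = 0.00135), and Vwf, von Willebrand factor, from 58.2 and 39.7 CPM to 112, 179 and 143 CPM (log2 fold change 1.56 ± 0.30, edgeR adjusted p = 0.00381; adjusted p = 0.0604 without Normal replicate 3). Vcam1, another adhesion molecule and named after its values were seen, stood at 51.0 and 46.5 CPM and 64.5, 42.4 and 44.0 CPM (log2 fold change 0.05 ± 0.25, edgeR adjusted p = 0.888). Cldn5, the claudin of the blood-brain barrier, stood at 129 and 71.0 CPM in Normal and 134, 306 and 156 CPM in IS-HA and did not pass (log2 fold change 0.99 ± 0.36, edgeR adjusted p = 0.0559), although it did without Normal replicate 1 (1.48, adjusted p = 0.0491) and without IS-HA replicate 1 (1.21, adjusted p = 0.0263). Slco1c1, the thyroid hormone carrier of brain endothelium, fell from 62.6 and 55.9 CPM to 33.6, 20.5 and 21.9 CPM (log2 fold change -1.22 ± 0.30, edgeR adjusted p = 0.0124), with adjusted p of 0.0702 and 0.0605 without Normal replicate 1 or 3.

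Mural cell genes went both ways, with 5 of 13 raised, or 2 without Normal replicate 3, and 1 lowered. The list median was 0.16, and the lowered share lay near the 7.71% over all genes tested. Tagln, an actin-binding protein of smooth muscle, rose from 38.2 and 22.0 CPM to 402, 592 and 252 CPM (log2 fold change 3.79 ± 0.45, edgeR adjusted p = 0.000252). Of the members named after their values were seen, Cnn1 and Des were raised, at 3.45 and 2.51. Acta2 and Myh11 were not called, at -0.12 and -0.13. Vtn, Notch3 and Abcc9, also without a call, had all 3 IS-HA rats below both Normal rats. Rgs5, a signaling regulator typical of pericytes, fell from 57.0 and 64.7 CPM to 28.9, 11.5 and 28.1 CPM (log2 fold change -1.40 ± 0.34, edgeR adjusted p = 0.0117; adjusted p = 0.0880 without Normal replicate 3 and 0.0649 with only the groups compared). Pdgfrb, the receptor that keeps pericytes on the vessel, stood at 47.9 and 44.4 CPM and 45.1, 53.2 and 56.6 CPM and was not called (log2 fold change 0.16 ± 0.19, edgeR adjusted p = 0.535).

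Genes of tissue next to the striatum were read to see what else the samples held. Of 11 tested choroid plexus and ependyma genes 3 were raised and 0 lowered, but 2 of the raised genes were under the filter's level in both Normal rats. Of 7 members that reached this level in a Normal rat 1 was raised, a share near the 15.1% over all genes tested. Ttr, transthyretin, the thyroid hormone carrier secreted by the choroid plexus, stood at 0.311 and 0.232 CPM in Normal and 4.67, 1.26 and 1.68 CPM in IS-HA and did not pass (log2 fold change 3.23 ± 1.18, edgeR adjusted p = 0.0570), though it did without IS-HA replicate 2 (3.53, adjusted p = 0.0493), without the filter on low counts (adjusted p = 0.0486), with DESeq2's Wald test (adjusted p = 0.0199) and with only the groups compared (adjusted p = 0.0433). Of 12 meningeal and fibroblast genes 6 were raised, 4 of them collagens and matrix proteins counted above, or 3 without Normal replicate 1. Igfbp2, a binding protein for insulin-like growth factors, rose from 5.48 and 14.0 CPM to 140.2, 264 and 99.0 CPM (log2 fold change 4.10 ± 0.58, edgeR adjusted p = 0.000642). Members of this list without a call were Pdgfra and, named after their values were seen, Slc6a13, Fmod, Ogn, Igf2 and Slc22a6. Their log2 fold changes were 0.37, -0.02, -0.71, -0.80, -0.97 and -1.36. Fmod and Igf2 had all 3 IS-HA rats below both Normal rats. The part of such tissue in the raised matrix genes was not tested.

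Proliferation genes were raised without exception. All 30 tested cell cycle genes were raised (median 3.04), and 28 or more of them in each fit that left out 1 rat. Mki67, the proliferation antigen Ki-67, rose from 5.35 and 9.76 CPM to 84.2, 68.5 and 80.1 CPM (log2 fold change 3.36 ± 0.35, edgeR adjusted p = 0.000119), and Top2a, the topoisomerase of dividing cells, from 5.04 and 9.59 CPM to 76.5, 74.8 and 63.2 CPM (log2 fold change 3.29 ± 0.32, edgeR adjusted p = 9.67e-05). The 3 IS-HA rats lay close together for both, and IS-HA replicate 2 was not the highest. Cdk1, the kinase that starts mitosis, rose from 1.18 and 0.988 CPM to 18.4, 32.8 and 16.02 CPM (log2 fold change 4.35 ± 0.41, edgeR adjusted p = 8.77e-05). Which cell types divided cannot be read from bulk tissue.

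Genes of the p53 response and of apoptosis were raised in 10 of 22 tested members (median 0.97), and in 6 without Normal replicate 3. Cdkn1a, the cell cycle inhibitor p21, rose from 15.995 and 8.25 CPM to 36.0, 55.9 and 43.8 CPM (log2 fold change 1.895 ± 0.33, edgeR adjusted p = 0.00234). Fas, a death receptor, rose from 1.37 and 0.697 CPM to 6.77, 6.63 and 4.84 CPM (log2 fold change 2.55 ± 0.37, edgeR adjusted p = 0.000709), and Casp8, the caspase it activates, from 1.12 and 1.45 CPM to 5.30, 10.3 and 5.40 CPM (log2 fold change 2.41 ± 0.40, edgeR adjusted p = 0.00164).

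Stress responses of the endoplasmic reticulum and cytosol were raised in a few members each. Of 19 tested genes of the unfolded protein and integrated stress responses 6 were raised (median 0.79). Atf3, a stress-induced transcription factor, rose from 0.809 and 1.16 CPM to 15.9, 25.7 and 24.9 CPM (log2 fold change 4.47 ± 0.52, edgeR adjusted p = 0.000224). Ddit3, the factor CHOP, had 18.4 and 12.7 CPM in Normal and 26.5, 61.1 and 25.98 CPM in IS-HA (log2 fold change 1.28 ± 0.40, edgeR adjusted p = 0.0329), and its call was lost without IS-HA replicate 2 (0.76, adjusted p = 0.0628), Normal replicate 1 (adjusted p = 0.0730) or Normal replicate 3 (adjusted p = 0.232), and with the length offset (0.59) or only the groups compared (adjusted p = 0.1104). Of 14 heat shock genes 4 were raised and 1 lowered, the latter a share near the 7.71% over all genes tested. Hspa1a, the inducible Hsp70, rose from 1.99 and 1.92 CPM to 7.99, 16.9 and 12.0 CPM (log2 fold change 2.63 ± 0.39, edgeR adjusted p = 0.000826), and the lowered member was Hsph1, an exchange factor for Hsp70, at -1.03, whose call was lost without IS-HA replicate 2 (-0.84), IS-HA replicate 3 (-0.98), Normal replicate 1 (adjusted p = 0.0796) or Normal replicate 3 (adjusted p = 0.123). The Hsph1 call also ended with library size alone (-0.89), TMM without hemoglobin and mitochondrial genes (-0.98), the length offset (-0.79) and only the groups compared (adjusted p = 0.0725).

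Glycolysis and hypoxia genes showed no common shift, with 4 of 27 raised and 1 lowered and a median of 0.22. Their raised share lay near the 15.1% over all genes tested. The raised ones included Hk3, a hexokinase of myeloid cells, which had 2 counts over both Normal rats and 44.99, 72.9 and 43.3 CPM in the IS-HA rats, a ratio of 829, with a 95% counting interval of 229 to 6853. Adm, the vasodilator adrenomedullin, rose from 1.43 and 0.814 CPM to 17.7, 27.0 and 18.3 CPM (log2 fold change 4.21 ± 0.60, edgeR adjusted p = 0.000692), and Hk2, the inducible hexokinase, from 6.29 and 5.87 CPM to 30.7, 15.3 and 26.4 CPM (log2 fold change 1.997 ± 0.33, edgeR adjusted p = 0.00165). Vegfa, the vascular growth factor, stood at 172 and 136 CPM in Normal and 96.8, 78.4 and 104 CPM in IS-HA, below Normal in all 3 rats, and its log2 fold change of -0.73 did not reach -1 (edgeR adjusted p = 0.0421).

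Medium spiny neuron genes were lowered in all tested members but 1. Of 28 tested members 27 were lowered and 0 raised (median -1.86), and all 28 had the 3 IS-HA rats below both Normal rats. The count was 15 without Normal replicate 3. The mean level of the list relative to Normal was -1.46, -2.14 and -2.30 in IS-HA replicates 1, 2 and 3 on the log2 scale, and here replicate 3, not 2, was the lowest. Drd1, the D1 dopamine receptor of the direct pathway, fell from 411 and 450.0 CPM to 164, 76.8 and 74.2 CPM (log2 fold change -2.03 ± 0.45, edgeR adjusted p = 0.00741; adjusted p = 0.0512 without Normal replicate 3). Drd2, the D2 receptor of the indirect pathway, fell from 303 and 236 CPM to 101, 72.6 and 47.0 CPM (log2 fold change -1.87 ± 0.45, edgeR adjusted p = 0.0106; adjusted p = 0.0627 without Normal replicate 1). By the fitted fold change 24.5% of the Normal level remained for Drd1 and 27.4% for Drd2, and the difference between the receptors was not tested.

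Signaling enzymes of the same neurons followed. Ppp1r1b, the dopamine-regulated phosphatase inhibitor DARPP-32, fell from 2408 and 2021 CPM to 933, 728 and 408 CPM (log2 fold change -1.68 ± 0.44, edgeR adjusted p = 0.0161), with adjusted p of 0.0782 and 0.0645 without Normal replicate 1 or 3. Pde10a, the striatal phosphodiesterase, fell from 209 and 355 CPM to 29.6, 4.89 and 18.1 CPM (log2 fold change -3.98 ± 0.58, edgeR adjusted p = 0.00074). Gng7, the G protein subunit that couples D1 receptors to adenylyl cyclase, fell from 2146 and 1488 CPM to 518, 277 and 372 CPM (log2 fold change -2.22 ± 0.43, edgeR adjusted p = 0.00376). Penk, the enkephalin precursor of indirect pathway neurons, was the member without a call, at 1533 and 1236 CPM in Normal and 691, 824 and 317 CPM in IS-HA (log2 fold change -1.18 ± 0.52, edgeR adjusted p = 0.101). With the length offset Penk was lowered as well (-1.67, edgeR adjusted p = 0.0221).

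**Figure D5:**
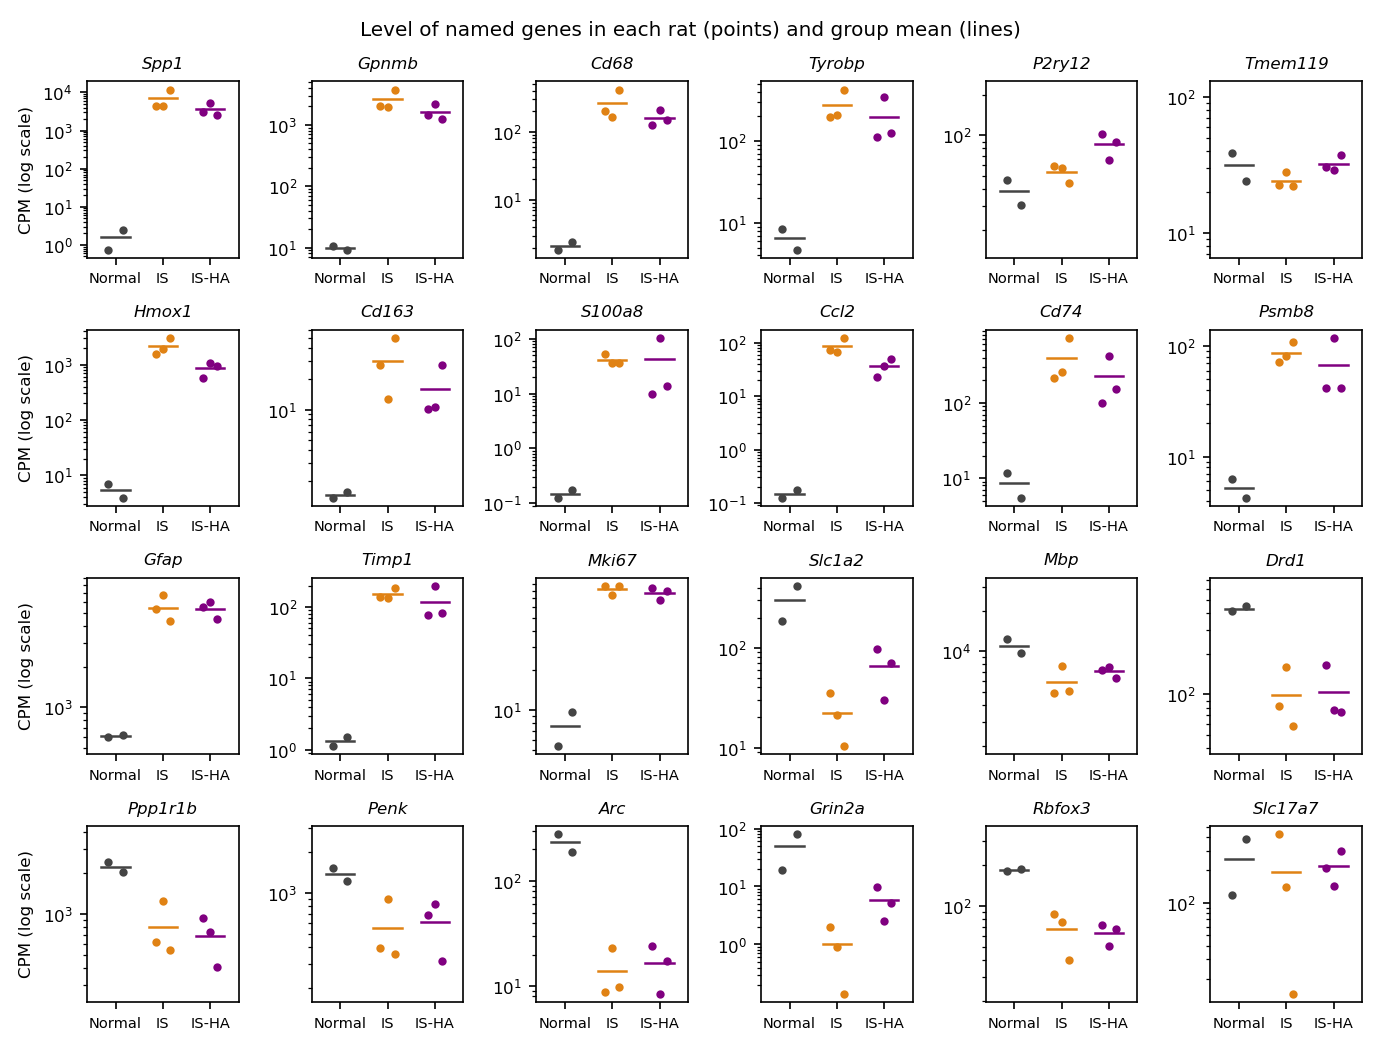
Points give the CPM of each rat on a log axis for 24 genes in the Normal (n = 2), IS (n = 3) and IS-HA (n = 3) rats, and lines the group means. Phagocyte genes such as Gpnmb and Cd68 lie far above Normal in every IS-HA rat, Tmem119 and Slc17a7 overlap with Normal, and Drd1, Ppp1r1b and Arc lie below it.

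Interneuron genes were lowered in part. Of 17 tested members 8 were lowered and 0 raised (median -0.92), and 4 were lowered without Normal replicate 3 or without Normal replicate 1. Cholinergic genes were among them: Chat, which makes acetylcholine, fell from 22.4 and 18.9 CPM to 5.88, 4.42 and 5.59 CPM (log2 fold change -1.95 ± 0.42, edgeR adjusted p = 0.00627), and Slc5a7, the choline transporter, from 53.2 and 42.2 CPM to 15.98, 4.10 and 9.69 CPM (log2 fold change -2.23 ± 0.43, edgeR adjusted p = 0.00389). Nos1, the neuronal nitric oxide synthase, fell from 14.3 and 24.3 CPM to 5.11, 2.05 and 5.31 CPM (log2 fold change -2.18 ± 0.52, edgeR adjusted p = 0.0102; adjusted p = 0.1099 without Normal replicate 3). Sst, the peptide somatostatin of the Nos1 interneurons, stood at 117 and 97.4 CPM in Normal and 56.8, 81.7 and 44.0 CPM in IS-HA, below Normal in all 3, and did not pass (log2 fold change -0.82 ± 0.30, edgeR adjusted p = 0.0591). Sst did pass without IS-HA replicate 2 (-1.09, edgeR adjusted p = 0.0174) and with the length offset (-1.46, edgeR adjusted p = 0.00224).

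General neuronal genes were lowered in part. Of 16 tested pan-neuronal genes 5 were lowered (median -1.10; 1 without Normal replicate 3 and 3 without Normal replicate 1). Of 12 cortical glutamatergic genes 1 was lowered (median -0.28), a share near the 7.71% lowered over all genes tested. Rbfox3, which encodes the nuclear antigen NeuN, fell from 182 and 187 CPM to 72.4, 51.0 and 67.2 CPM (log2 fold change -1.54 ± 0.30, edgeR adjusted p = 0.00421). Gad2, an enzyme of GABA synthesis, fell from 115 and 179.6 CPM to 56.5, 21.6 and 40.8 CPM (log2 fold change -1.89 ± 0.40, edgeR adjusted p = 0.00621; adjusted p = 0.0743 without Normal replicate 3). Snap25, a fusion protein of the nerve terminal, stood at 1264 and 1581 CPM in Normal and 816, 408 and 668 CPM in IS-HA and did not pass (log2 fold change -1.17 ± 0.48, edgeR adjusted p = 0.0827). With DESeq2's Wald test Snap25 did pass (-1.22, adjusted p = 0.0404). Slc17a7, the vesicular glutamate transporter of cortical neurons, spread more between the Normal rats, at 118 and 387 CPM, than between the groups, with 209, 143 and 297 CPM in IS-HA (log2 fold change -0.22 ± 1.02, edgeR adjusted p = 0.877; 0.87 without Normal replicate 3). The sum of cortical markers was also higher in Normal replicate 3 than in replicate 1 (98.8 and 347 TPM, in the order of replicates 1 and 3), and its part in the neuronal results was not tested.

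Genes of the synaptic vesicle and its release were lowered in few members. Of 23 tested members 6 were lowered (median -0.77), and 1 without Normal replicate 3. The scaffold proteins of the release site Bsn and Pclo fell from 105 and 220.2 CPM to 44.9, 14.0 and 46.2 CPM (log2 fold change -2.20 ± 0.54, edgeR adjusted p = 0.0124) and from 86.2 and 189 CPM to 40.8, 11.4 and 40.9 CPM (log2 fold change -2.14 ± 0.61, edgeR adjusted p = 0.0225). Both were higher in Normal replicate 3 than in replicate 1, and without Normal replicate 3 their adjusted p were 0.143 and 0.218 (for Pclo 0.0584 with only the groups compared). Unc13a, which primes vesicles, fell from 134 and 191 CPM to 35.2, 25.9 and 50.9 CPM (log2 fold change -2.12 ± 0.30, edgeR adjusted p = 0.000685) and kept its call in each fit that left out 1 rat. Syn1, a coat protein of the vesicle, stood at 300.4 and 420.0 CPM and 266, 225 and 310.0 CPM and was not called (log2 fold change -0.43 ± 0.39, edgeR adjusted p = 0.411).

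Receptors and channels made up the other large lowered groups. Of 29 tested glutamate and GABA receptor genes 19 were lowered (median -1.31), and of 27 voltage-gated channel genes 19 were (median -1.59), with 0 raised in either. These counts depended on the Normal rats: without Normal replicate 3 they were 1 and 2, and without Normal replicate 1 they were 10 and 15. The receptor count was also 11 without IS-HA replicate 3. Long transcripts in general read higher in Normal replicate 3 than in Normal replicate 1, as given above. Grin2a, a subunit of the NMDA receptor, fell from 19.2 and 79.6 CPM to 9.97, 2.52 and 5.22 CPM (log2 fold change -3.02 ± 0.70, edgeR adjusted p = 0.00951; -1.66 and adjusted p = 0.189 without Normal replicate 3). Kcnq3, which carries the M-current, fell from 59.0 and 132 CPM to 17.4, 3.79 and 12.1 CPM (log2 fold change -3.07 ± 0.62, edgeR adjusted p = 0.00472; adjusted p = 0.0630 without Normal replicate 3). Cacna1e, a calcium channel, fell from 41.6 and 98.6 CPM to 12.9, 6.63 and 13.9 CPM (log2 fold change -2.64 ± 0.44, edgeR adjusted p = 0.00182) and kept its call in each fit that left out 1 rat.

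Immediate early genes moved in both directions. Of 22 tested members 11 were lowered and 5 raised (median -0.999), and the counts stayed between 9 and 11 lowered and 4 and 5 raised in each fit that left out 1 rat. Arc, a protein of active synapses, fell from 278 and 189 CPM to 24.0, 8.36 and 17.4 CPM (log2 fold change -3.79 ± 0.52, edgeR adjusted p = 0.000552). Egr4, a zinc finger factor, fell from 46.2 and 35.6 CPM to 5.18, 4.73 and 2.61 CPM (log2 fold change -3.29 ± 0.50, edgeR adjusted p = 0.00104). Fos, the best known of them, stood at 21.0 and 24.5 CPM in Normal and 18.4, 10.3 and 22.8 CPM in IS-HA, with overlapping groups (log2 fold change -0.40 ± 0.35, edgeR adjusted p = 0.390). Fosl1, a Fos family member induced in injured and dividing cells, rose from 0.0622 and 0.291 CPM to 4.73, 12.5 and 10.99 CPM (log2 fold change 5.62 ± 0.77, edgeR adjusted p = 0.000546). The CArG box, the site of serum response factor, was found in 2 of the 8 lowered immediate early genes with a promoter entry and in 1.26% of all promoters. It is shown in capitals for Egr2, a zinc finger factor named after its values were seen (log2 fold change -3.01, edgeR adjusted p = 0.000112), which lies on the minus strand at chr20:21054505-21054534 of GRCr8.
Egr2: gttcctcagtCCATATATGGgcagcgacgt

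Oligodendrocyte genes were mostly not called. Of 21 tested myelin genes 2 were lowered and 0 raised (median -0.49), and 1 was lowered without IS-HA replicate 2. Mbp, myelin basic protein, stood at 12222 and 9695 CPM in Normal and 7293, 7705 and 6339 CPM in IS-HA, below Normal in all 3, and did not pass (log2 fold change -0.62 ± 0.27, edgeR adjusted p = 0.101). Opalin, a membrane protein of mature oligodendrocytes, fell from 374 and 389.8 CPM to 176, 116 and 133 CPM (log2 fold change -1.43 ± 0.28, edgeR adjusted p = 0.00435). Among 11 precursor genes 2 were raised and 1 lowered. These shares, and the lowered share of the myelin genes, lay near the 15.1% raised and 7.71% lowered over all genes tested. Vcan, the proteoglycan versican, rose from 55.0 and 63.5 CPM to 164, 163 and 172 CPM (log2 fold change 1.49 ± 0.29, edgeR adjusted p = 0.00381), and Pdgfra, the growth factor receptor of these cells, stood at 103 and 93.7 CPM and 149.8, 85.2 and 146 CPM without a call (log2 fold change 0.37 ± 0.27, edgeR adjusted p = 0.311).

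Cholesterol synthesis genes were mostly not called. Of 22 tested members 3 were lowered and 0 raised (median -0.60), 17 had the 3 IS-HA rats below both Normal rats (29.2% of all genes tested did), and 0 were lowered without Normal replicate 3. Hmgcs1, an early enzyme of the pathway, fell from 311 and 386 CPM to 175, 109 and 159 CPM (log2 fold change -1.24 ± 0.28, edgeR adjusted p = 0.00767; adjusted p = 0.0789 without Normal replicate 3).

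Nuclear genes of the respiratory chain were not called. Of 35 tested nuclear genes 0 were called by edgeR or by DESeq2's Wald test, and 8 had an unadjusted p under 0.05 (median 0.30). Of the 13 protein-coding genes of mitochondrial DNA, a set formed after the values were seen, 4 were lowered and 0 raised (median -0.80), and their difference from the nuclear genes was not tested. Among the 5 lowered genes with the highest Normal level in TPM, which corrects for length, 4 were subunits of complex I encoded by mitochondrial DNA. ND4 fell from 21891 ± 2079 TPM to 9740.4 ± 3872 TPM (mean ± SD over 2 and 3 rats; log2 fold change -1.23 ± 0.28, edgeR adjusted p = 0.00857; -1.06 and adjusted p = 0.0662 without Normal replicate 1; adjusted p = 0.0561 with limma and 0.0593 with only the groups compared). ND2 fell from 26783 ± 998 TPM to 13728 ± 5371 TPM (log2 fold change -1.03 ± 0.27, edgeR adjusted p = 0.0177), a call lost without IS-HA replicate 2 (-0.81), Normal replicate 1 (-0.92) or Normal replicate 3 (adjusted p = 0.0716). The ND2 call also ended with library size alone (-0.88), TMM without hemoglobin and mitochondrial genes (-0.98), limma (adjusted p = 0.115) and only the groups compared (adjusted p = 0.0861). The fifth was Nrgn, neurogranin, a calmodulin-binding protein of dendrites, at 4158 ± 46.0 TPM and 1452 ± 253 TPM (log2 fold change -1.51 ± 0.47, edgeR adjusted p = 0.0331), whose call was lost without any one of Normal replicates 1 and 3 and IS-HA replicates 1 and 3 (adjusted p = 0.113, 0.123, 0.0606 and 0.0832). On the same scale Spp1 was among the 5 most abundant raised genes in IS-HA, at 4980.0 ± 1087 TPM against 2.28 ± 1.82 TPM in Normal.

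Some of the largest changes lay outside the lists. Slpi, a leukocyte protease inhibitor, had 0 counts in Normal and 10.5, 37.1 and 12.8 CPM in IS-HA, at least 182-fold higher. Lilrb4, an inhibitory receptor of myeloid cells, had 3 counts over both Normal rats and 53.5, 113 and 62.5 CPM in IS-HA, a ratio of 755, with a 95% counting interval of 258 to 3662. Fabp4, a fatty acid carrier of fat cells and macrophages, had 1 count over both Normal rats and 19.2, 45.9 and 16.1 CPM in IS-HA, a ratio of 777, with a 95% counting interval of 139 to 30725. The noncoding RNA H19, transcribed from an imprinted locus, rose from 0.0622 and 0.174 CPM to 43.7, 105 and 70.5 CPM (log2 fold change 9.13 ± 0.75, edgeR adjusted p = 6.44e-05). Doc2b, a calcium sensor of vesicle release, fell from 48.4 and 44.5 CPM to 7.09, 2.998 and 6.05 CPM (log2 fold change -3.07 ± 0.42, edgeR adjusted p = 0.000521), and Kcng1, a modulatory potassium channel subunit, from 43.8 and 47.1 CPM to 5.75, 5.84 and 5.12 CPM (log2 fold change -3.03 ± 0.47, edgeR adjusted p = 0.00113). Ano3, a membrane protein of the anoctamin family, fell from 95.2 and 147 CPM to 23.1, 2.05 and 10.6 CPM (log2 fold change -3.29 ± 0.66, edgeR adjusted p = 0.00457). The lack of overlap between the groups was a condition for naming the genes of this paragraph.

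The IS rats, which were not aspirated, were set beside the IS-HA rats in a comparison that shares the IS-HA rats with the one above. With edgeR 1 gene was higher (0.00635% of those tested) and 0 were lower in IS-HA than in IS, and 0 of the 3596 genes called against Normal were called against IS. At an unadjusted p under 0.05 and the same fold cutoff 431 genes were higher and 143 lower, and DESeq2's Wald test gave 44 and 22. Without IS-HA replicate 2 the edgeR counts were 395 and 86. Of the raised genes 357 had all 3 IS-HA rats below all 3 IS rats (14.98%, against 5.42% of all genes tested), and 34 had them above. Of the lowered genes 87 had the IS-HA rats above all IS rats (7.17%, against 4.96% of all) and 3 below. The median log2 difference of IS-HA from IS was -0.44 for the pan-phagocyte list, -0.61 for the lipid and debris phagocyte list, 0.05 for medium spiny neuron genes and 0.045 for all genes tested.

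The list medians went both ways between IS-HA and IS. Those of receptors and channels were 0.94 and 0.63. That of complement genes was -0.10 and that of homeostatic microglia genes 0.04. Spp1 stood at 4478, 4533 and 11919 CPM in the IS rats and Gpnmb at 2058, 1949 and 3761 CPM, and neither differed from IS-HA by the test (edgeR adjusted p = 0.594 and 0.576). Drd1 stood at 82.3, 159 and 58.2 CPM in IS, and the IS-HA rats overlapped with them (log2 fold change 0.08, edgeR adjusted p = 0.971).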

How the data were processed

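Poly(A) RNA of striatum from 11 rats was sequenced as stranded paired-end libraries, 1 per rat. The deposited counts are whole-number reads per gene made by the authors, whose processing notes name fastp 0.20.0, FastQC 0.11.9, HISAT2 2.1.0, SAMtools 1.9, featureCounts and DESeq2 and the build mRatBN7.2. The authors also deposited TPM values, scaled by gene length. The annotation release and strand setting of counting are not given in the sources used here, so reads of overlapping, antisense or near-identical genes may be divided.

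Samples were grouped by GEO's labels. Counts were fitted in 1 edgeR 4.0.16 quasi-likelihood model over 4 groups (R 4.3.3, filterByExpr, TMM scaling, Benjamini-Hochberg over 15742 genes) and contrasted as IS-HA against Normal and IS-HA against IS. CPM are TMM-scaled. Nothing in the labels pairs rats. With 2 and 3 rats, p-values rest on a spread shared with the IC and IS rats. Intervals cover counting error only and were made at the 95% level (exact binomial). Of 815 list entries 792 matched a gene listed. Text names the listed key genes, the 10 largest changes per direction with at least 10 CPM and no overlap, up to 3 called genes per list and the rarer direction, and the 5 most abundant per direction, and a few of these are not reported here. The lists and named genes were chosen with earlier results of these data known. Alternatives were DESeq2 1.42.0 (test and size factors), limma 3.58.1 on log2(TPM + 1), library size alone, TMM without hemoglobin and mitochondrial genes, other filters and cutoffs, a length offset, a replicate block, only the groups compared, and leaving out each rat. Promoter sequences are from RefSeq (GRCr8), and no coordinates of the files' build were used.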

Additional observations from a re-analysis of the deposited data

How the results depend on the processing

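The count of raised genes stayed within 1.5 times of 2383 under other scalings, filters, tools and the length offset, and so did that of lowered genes. With only the groups compared in the fit 628 genes were lowered. Stricter rules gave 1540 raised and 471 lowered at an adjusted p under 0.01, 1207 and 255 at a log2 fold change of at least 2, and 1115 and 154 with glmTreat, and without a fold cutoff 1898 were lowered. The replicate block gave 584 lowered genes. The labels give the replicate numbers no shared animal or day, and deviations of same-numbered IS-HA and Normal rats correlated at -0.364 for number 1 and 0.338 for number 3, so the numbers were not taken as pairs. Leaving out each rat gave 1205 to 2669 raised and 324 to 1480 lowered, both lowest without Normal replicate 3 (792 lowered without Normal replicate 1), and leaves 1 Normal rat assumed to vary like the other groups. Against IS, genes higher in IS-HA numbered 44 (22 lower) with DESeq2's Wald test and 0 with DESeq2 size factors, library size alone, TMM without hemoglobin and mitochondrial genes, limma, only the groups compared or the replicate block, and 0 to 395 higher and 0 to 86 lower when rats were left out in turn, highest without IS-HA replicate 2. The causes were not tested. For the named genes 1919 values kept their direction and side of the thresholds, 125 fell below them and 14 passed anew. With all rats kept, the replicate block ended the calls of 18 named genes (Apoe, Cd2, Cd5, Cx3cl1, Cxcl10, Cxcl3, Ddit3, Drd2, Fth1, Hsph1, Kcnj10, Ncr1, ND2, ND4, Nrgn, Oasl, Pclo and Ppp1r1b), only the groups compared 15, limma 11, the length offset 6, library size alone 3, TMM without hemoglobin and mitochondrial genes 2 and DESeq2 size factors 1 (Apoe), and DESeq2's Wald test and the other filters 0. The sign turned for genes without a call: Cd3e (-0.0061 with the replicate block, -0.7514 to 0.9475 without single rats), Aqp4 (-0.001 with limma, -0.3361 to 0.4922), Tmem119 (-0.0672 with the length offset, -0.2615 to 0.4242), Slc17a7 (-0.8406 to 0.8744), Cd3g (-0.2222 to 2.5832) and Vcam1 (-0.1724 to 0.158). Depth limits the genes at 0 to 3 Normal counts to bounds or counting intervals.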
